A study of Mus musculus with 4 samples.

Results

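Desmosomes are the spot-like junctions that tie the intermediate filaments of neighbouring epithelial cells together. Desmosomal cadherins, the desmogleins (Dsg) and desmocollins (Dsc), bind each other across the gap between cells. Inside the cell their tails hold plakoglobin (Jup) and the plakophilins (Pkp), which in turn hold desmoplakin (Dsp), the anchor for keratin filaments. Cells choose among isoforms. Dsg2, Dsc2 and Pkp2 are the forms of simple epithelia, such as the luminal layer of a duct, and also occur more widely, while Dsg3, Dsc3, Pkp1 and Perp, a tetraspan membrane protein that desmosomes need in stratified epithelia, are typical of stratified and basal epithelium. Dsp, Jup and Pkp3 are used in both and are called shared here. The salivary duct has a luminal and a basal layer, so its desmosomes can draw on either set.

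The open chromatin of these 10 genes was described in salivary gland organoids. Members were taken by symbol from a gene table, and no measured value enters that rule, but the list was chosen with earlier results of these data known. The grouping into simple, stratified and shared isoforms is textbook background. They are 10 of 21436 protein-coding genes that could be placed on a strand, and 59 of the 32011 distinct open regions in the deposited list lay in them or within 50 kb of their ends. ATAC-seq was used, which cuts and tags DNA with the Tn5 transposase where chromatin is accessible. The 4 samples were organoids grown from submandibular glands of C57BL/6 mice that had not been irradiated, in Matrigel with EGF, FGF2, Wnt3a- and R-spondin1-conditioned medium and the kinase inhibitor Y27632. Of these, 2 were passage 1 and 2 were passage 2, and in each passage 1 sample came from a mouse labelled 12 weeks old and 1 from a mouse labelled 3 months old. By the methods they were organoids of 7 days from different mice. Organoids hold several epithelial cell types, so a bulk list cannot say which cells carry a region.

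By the methods, the authors made a consensus list from all organoid samples. The deposited list was taken to be that one, although its number of regions does not settle this, and it gives no values by sample. Depth, the spread between mice and any difference between passages or ages are therefore unknown, no test between samples was possible, and values below carry no error. Each region has a fold, its signal at the strongest summit over the local background, and an IDR score, a measure of reproducibility that reaches 1000 at most. A region not listed at a gene is only a region not called at this unknown depth. The labels name GRCm39, but the list was read as GRCm38: with the starts of protein-coding genes from a GRCm38.p6 table, 38.3% had a region no farther than 1 kb away, against 5.04% with starts from a GRCm39 annotation. For the desmosome genes the counts were 6 of 10 and 0 of 10.

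The question put to these genes was whether the start of each isoform was marked by an open region, and where else regions lay. All 4 stratified isoforms had a region at the 5′ end, meaning a region midpoint within 1 kb of the outermost annotated end, and 0 of the 3 simple isoforms did. Among the shared genes it was 2 of 3, Dsp and Jup but not Pkp3. Over all members this made 6 of 10, beside 38.3% of all protein-coding genes. There were 2 stricter sets, the 16006 regions with the lowest q-values and the 14422 with an IDR score of 1000. In either, a region remained at the start of 2 of 4 stratified isoforms, Dsg3 and Perp, and of 3 of 10 members, with Jup. Beside this, 25.9% of all protein-coding genes had one in the first set and 24.0% in the second. Genes are not replicates and 7 isoforms are few, so the contrast is given as a count with no test. It covers the listed isoforms only. The other 5 genes of the cadherin cluster described below, which include cadherins of upper epidermis, had no region at the start. The closest region to the start lay between 1.5 and 265.5 bp away in the stratified isoforms. In the simple ones it lay between 3.60 and 11.1 kb away. That these ranges did not overlap follows from the call within 1 kb. Of all protein-coding genes, 44.3% had a nearer region than Dsg2, 52.6% than Dsc2 and 54.0% than Pkp2. For the stratified isoforms this share ran from 0.289% for Pkp1 to 32.2% for Dsc3. Only the outermost start was used in the GRCm38 table. In the GRCm39 GENCODE annotation, every protein-coding transcript of Dsg2, Pkp2, Dsg3, Dsc3, Pkp1, Perp and Dsp started within 1 kb of the outermost start. So did 4 of 5 of Dsc2, the other lying 21.5 kb inside. A Dsc2 region lay 22.8 kb from the outermost start in GRCm38. The count of simple isoforms within 2 kb, given below, therefore holds for outermost starts only. For Jup, 20 of 21 started farther in, by 2.43 to 13.8 kb.

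**Figure D1:**
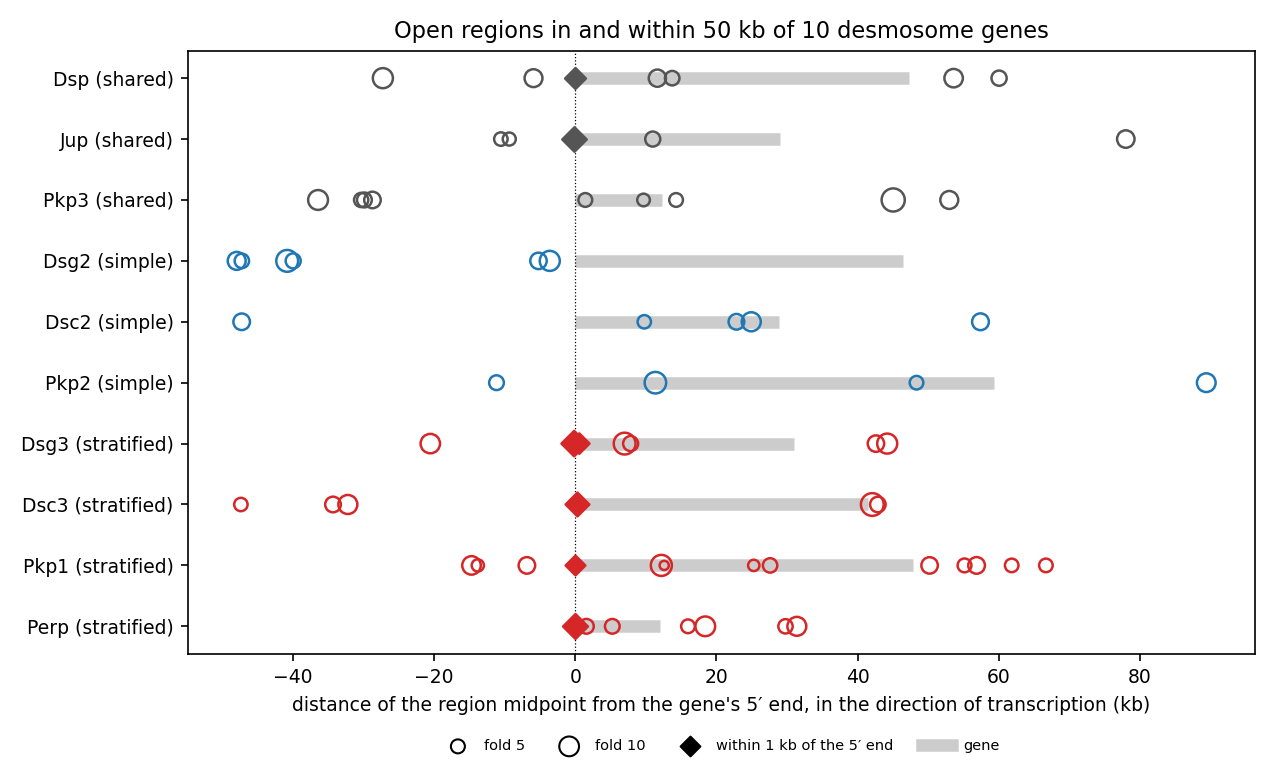
Open regions of 10 desmosome genes by distance in kb from the 5′ end, with transcription running to the right. Marks are region midpoints sized by fold over the local background, diamonds lie within 1 kb of the 5′ end, and grey bars are genes; the 4 stratified isoforms in red each carry a diamond and the 3 simple isoforms in blue carry none.

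Dsp, which links the plaque to keratin, had 7 regions in or within 50 kb of the gene. The one at its start, on chromosome 13 from 38151016 to 38151560, was centred 6 bp from the 5′ end and had a fold of 5.55 and an IDR score of 737. Of the 7, only that at 13.7 kb was weaker, with a fold of 5.37. Stronger ones lay 27.2 kb upstream (fold 10.3), 5.90 kb upstream (fold 8.18) and 11.6 kb inside the gene (fold 7.57). The region 53.6 kb from the start, with a fold of 8.71, lay at the 5′ end of Snrnp48, the next gene. The start of Dsp was thus open but not where the signal was highest.

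Jup, the plakoglobin that desmosomes share with adherens junctions, had 5 regions. That at its start, on chromosome 11 from 100397688 to 100398339, was 652 bp wide with a fold of 7.65 and an IDR score of 1000. The only region inside the gene lay 11.0 kb from the start with a fold of 5.80. A pair lay 9.34 and 10.5 kb upstream with folds of 4.35 and 4.66, closer to the start of P3h4. Within reach, the region at the 5′ end of Eif1 was higher still, with a fold of 7.80. Jup was the member whose own start came closest to being its strongest site.

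RefSeq promoters of GRCm38.p6 were at hand for these 2 of the 10 members, and are shown because each lies whole within its open region. They are the 250 bases before the start, 5′ to 3′ on the strand of the gene, from chr13:38151044-38151293 on the plus strand and chr11:100397791-100398040 on the minus strand, with motif matches in capitals.
Dsp: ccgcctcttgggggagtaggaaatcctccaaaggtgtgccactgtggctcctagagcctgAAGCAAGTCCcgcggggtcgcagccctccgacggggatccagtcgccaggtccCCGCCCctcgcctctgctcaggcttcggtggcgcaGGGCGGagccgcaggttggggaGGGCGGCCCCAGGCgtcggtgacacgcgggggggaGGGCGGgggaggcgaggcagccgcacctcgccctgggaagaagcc
Jup: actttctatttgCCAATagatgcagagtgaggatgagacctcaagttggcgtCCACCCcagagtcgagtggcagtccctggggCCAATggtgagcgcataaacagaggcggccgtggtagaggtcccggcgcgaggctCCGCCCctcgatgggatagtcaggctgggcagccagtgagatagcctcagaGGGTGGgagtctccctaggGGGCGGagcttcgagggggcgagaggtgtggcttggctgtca

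Both promoters were rich in G and C, at 72.4% for Dsp and 62.0% for Jup, beside a median of 52.4% over 32851 promoters and 60.4% over the 10160 of them with a region within 1 kb. The ratio of observed to expected CpG was 0.679 for Dsp and 0.570 for Jup, beside medians of 0.373 over all promoters and 0.758 over those with a region. Of 14 motifs searched on both strands, Dsp held the GC box of KLF and SP factors, GGGCGG, at 4 places, which 32.7% of all promoters held at least once. It also held the AP-2 motif GCCNNNGGC, found in 13.7% of promoters, which shared 1 base with a GC box, and a half-site of the p53 family, found in 7.13%. Jup held the GC box at 2 places, the CACCC box CCACCC at 2 places (28.1% of promoters) and the NF-Y motif CCAAT at 2 places (33.9%). Neither held AP-1 TGANTCA (6.75%), TEAD GGAATG (12.6%), Grainyhead AACNNGTT (3.64%), RUNX TGTGGT (14.05%), ETS CCGGAA (12.0%), SOX ACAAAG (16.5%), FOX GTAAACA (3.17%), the E-box CACCTG (17.2%) or TATAAA (12.4%). The matches describe letters only. The GC box was itself present in 60.3% of promoters with a region and 20.4% of those without.

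The plakophilins, armadillo proteins that cluster desmosomal cadherins, differed most from one another. Pkp1 had 13 regions within 50 kb, more than any other member, and 5 of them lay inside the gene. The region at its start (chromosome 1, 135918963 to 135919448) was centred 1.5 bp from the 5′ end but was weak, with a fold of 4.99. Its strongest region lay 12.2 kb inside the gene, from 135906780 to 135907228, with a fold of 11.3. Beside it lay the weakest region of all 59, with a fold of 2.15 despite an IDR score of 1000. Upstream of Pkp1, 3 regions with folds of 3.81 to 8.78 lay between 6.84 and 14.7 kb from the start. Past its 3′ end, between 50.2 and 66.7 kb from the start, lay 5 more with folds of 4.70 to 7.10, whose nearest start was that of Tnnt2.

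Pkp2, the plakophilin of simple epithelia and heart muscle, had 4 regions, the fewest of the members. None lay at its start, and the closest was 11.1 kb upstream with a fold of 5.56. Inside the gene, a region 11.4 kb from the start, spanning 16224472 to 16224942 of chromosome 16, had a fold of 11.8, and another at 48.4 kb had a fold of 4.74. The last one, 89.4 kb from the start, lay at the 5′ end of Yars2 and had a fold of 8.96. Pkp2 and Pkp1 thus held intragenic regions of nearly the same fold at a like distance from the start, while only Pkp1 had a region at the start itself.

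Pkp3, found in most desmosomes, had no region within 1 kb of its outermost start, although the closest lay only 1.44 kb inside the gene, spanning 141079458 to 141079871 of chromosome 7, and had a fold of 4.85. In GENCODE, 3 of its 4 protein-coding transcripts start between 1.02 and 1.65 kb downstream of the outermost one, distances taken within GRCm39. The absence at the start of Pkp3 therefore depends on which start is used. Its strongest neighbours were far, at 45046 bp with a fold of 13.7 and 36.4 kb upstream with a fold of 10.1, and had their nearest 5′ ends at Ano9 and B4galnt4.

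Dsg2, Dsc2, Dsg3 and Dsc3 lie in 1 cluster of 9 desmosomal cadherin genes on chromosome 18. It spans 643.6 kb, from the outer end of Dsc3 to that of Dsg2, and held 22 regions, or 3.42 per 100 kb, beside 1.18 per 100 kb over all chromosomes. The desmocollins point one way and the desmogleins the other, so that the 132.6 kb between Dsc1 and Dsg1c is flanked by the starts of both.

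Dsg3, the desmoglein of basal keratinocytes, had 7 regions. Those at its start ran from 20509930 to 20510320 with a fold of 8.24 and from 20510736 to 20510975 with a fold of 5.33, which made it the only member with 2. Inside the gene, a region 7003 bp from the start, from 20517134 to 20517420, had a fold of 12.2, and a neighbour at 7.85 kb had a fold of 5.78. A further one stood 20.5 kb upstream with a fold of 9.64. Dsg3 was therefore open at the start, in the first part of the gene and upstream.

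Dsg2, the desmoglein of simple epithelia, had 0 regions in its 46.5 kb, the only member with none inside. A pair stood just upstream, between Dsg3 and Dsg2, at 3.60 kb from the start of Dsg2 (from 20554056 to 20554888, fold 10.3) and at 5197 bp (fold 6.91). Both had an IDR score of 1000. The other 4 regions within 50 kb were at the start of Dsg3 or inside it. From the region at 3.60 kb to the far end of Dsg2, 50.1 kb held no further one.

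Dsc3, the desmocollin of basal layers, had 1 region in the gene, that at its start, from 20001801 to 20002488, which was 688 bp wide, with 4 summits and a fold of 7.21. Just past its 3′ end, 42.1 kb from the start, stood one with a fold of 13.2, from 19960166 to 19960490, and another at 42.9 kb had a fold of 6.17. Dsc2, the widely used desmocollin, showed the opposite layout. It had 0 regions at the start and 3 inside the gene, at 9.79 kb (fold 4.58), 22.8 kb (fold 6.27) and 24.9 kb (from 20034337 to 20034891, fold 9.28). Between Dsc3 and Dsc2, then, only Dsc3 carried a region at the start, while Dsc2 carried 3 farther inside the gene. The remaining desmocollin, Dsc1, had 0 at the start and 1 inside, 7.98 kb from the start.

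The other 5 genes of the cluster, Dsc1, Dsg1c, Dsg1a, Dsg1b and Dsg4, encode cadherins of upper epidermis and hair. None had a region at the start, and between them they held 2 regions inside, 1 each in Dsc1 and Dsg4. That of Dsg1b stood 1.17 kb upstream, with a fold of 8.01. How well reads can be placed in the 3 Dsg1 genes, which are similar copies, was not tested. The absence of regions there is therefore uncertain. The longest stretch without a region, 135.7 kb, ran over Dsg1c and Dsg1a. By contrast, 8 of the 22 regions lay in the gap between Dsc1 and Dsg1c, with folds of 4.35 to 11.8, and 4 of them exceeded a fold of 11.1. None of the 8 was within 50 kb of a member, and which genes these regions act on was not tested.

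**Figure D2:**
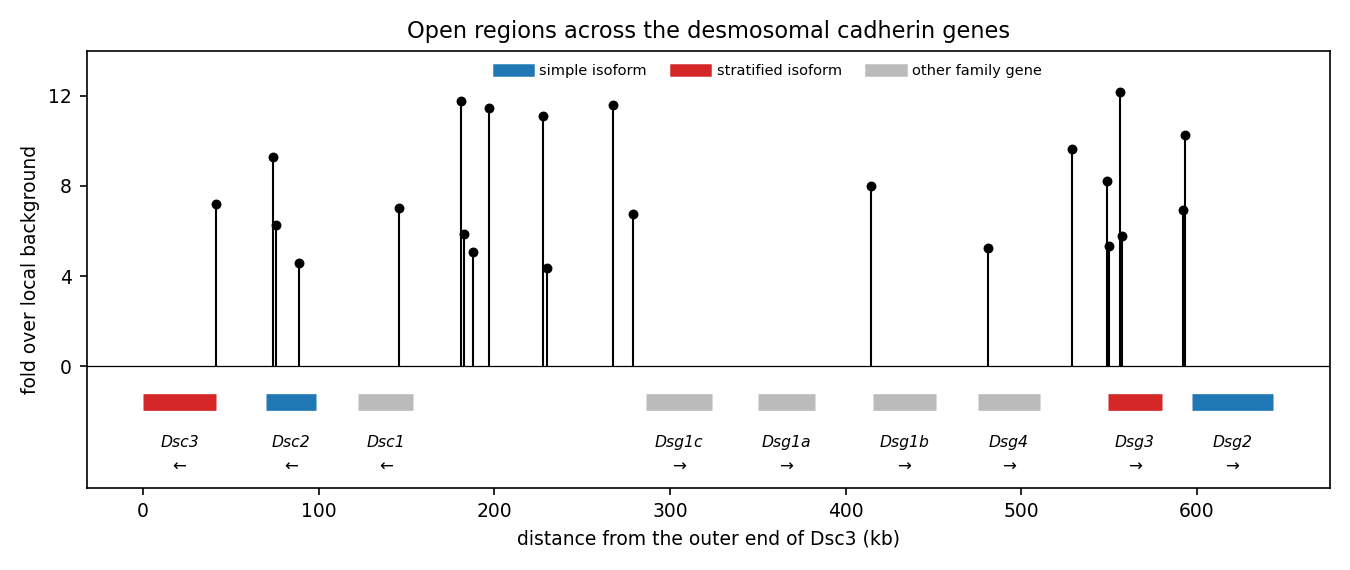
Open regions across the 643.6 kb cadherin cluster, plotted by fold over the local background against distance in kb from the outer end of Dsc3, with genes below as bars and arrows for the direction of transcription. Regions stand at the starts of Dsg3 and Dsc3 in red, 8 fill the gap between Dsc1 and Dsg1c, and none lies over Dsg1c, Dsg1a, Dsg1b or Dsg2.

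Perp, also known as a target of p53 and p63, had 7 regions around a gene of 12.0 kb. That at its start, on chromosome 10 from 18844772 to 18845279, had a fold of 7.90, almost exactly the median of all regions at protein-coding starts, and an IDR score of 1000. Inside the gene, those at 1.59 and 5.26 kb had folds of 5.59 and 5.52. Past its 3′ end 4 more followed, at 16.0 kb (fold 4.80), 18.4 kb (fold 9.91), 29.8 kb (fold 5.26) and 31.4 kb (fold 9.15). The protein-coding start nearest to each of the 7 was that of Perp.

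The regions at the starts of the desmosome genes were of middling to low strength. Over the 8174 regions within 1 kb of a protein-coding start, the median fold was 7.90 with quartiles of 6.05 and 10.6. The 7 regions at members' starts ranged from 4.99 for Pkp1 to 8.24 for Dsg3, which stood at percentiles 9.45 and 54.0 of those 8174. With Dsp at 17.2, Dsc3 at 41.4, Jup at 46.6 and Perp at 49.9, only the first region of Dsg3 passed the median. The second region of Dsg3 stood at 14.01, and it, Pkp1 and Dsp lay below the first quartile. In all 6 members with a region at the start, the region with the highest fold within 50 kb was another one. This was so for 58.0% of all protein-coding genes with a region at the start. That share was not matched for the number of regions within 50 kb. The 6 members had 5 to 13, beside a median of 3 over all protein-coding genes. The other members had no region at the start to compare. At Dsg2, Jup and Pkp3 the strongest region lay closer to the start of a neighbour.

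**Figure D3:**
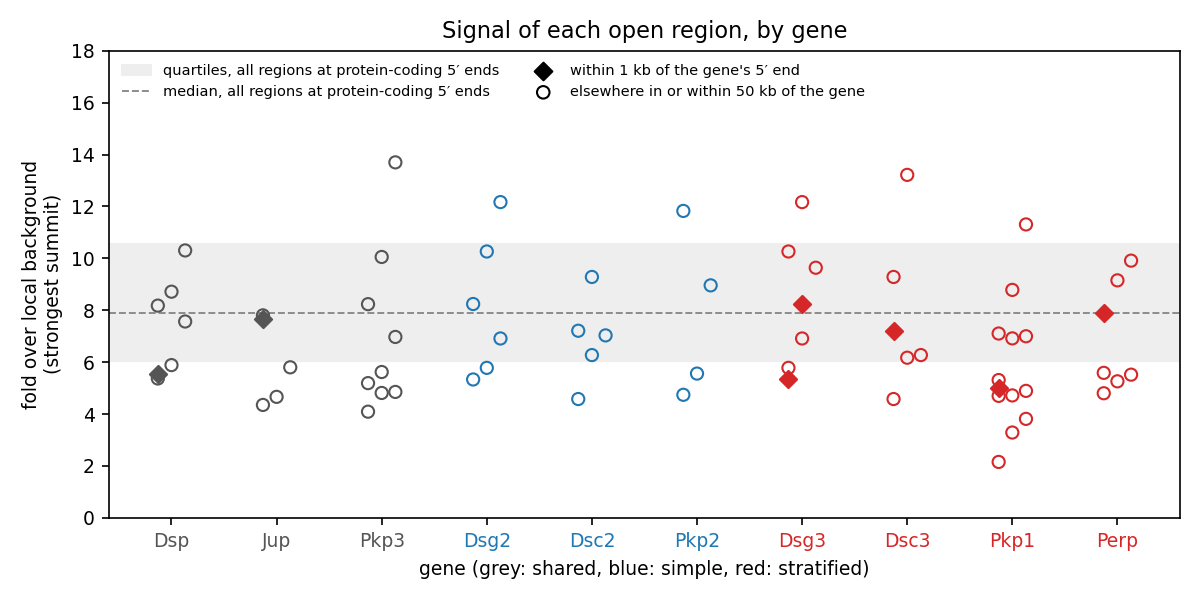
Fold over the local background, at the strongest summit, of every region in or within 50 kb of each gene. Diamonds are regions at the gene's start, and the band and dashed line give the quartiles and median of all 8174 regions at protein-coding starts; in each of the 6 genes with a diamond, an open circle stands above it.

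Counts of regions were high around these genes, and also around the other junction genes described below. Within 50 kb of their ends the members had 4 to 13 regions, with a median of 6.5, beside a median of 3 over all protein-coding genes, of which 78.5% had at least 1. Their percentiles among those genes ran from 65.7 for Pkp2 to 99.3 for Pkp1, and among 1755 to 2617 genes of like length from 60.7 for Pkp2 to 99.8 for Pkp1. Inside the genes, 21 regions were found in 9 of 10 members, beside 39.4% of all protein-coding genes with 1 or more. Among genes of like length, the inside counts stood at percentiles from 21.9 for Dsg2, 61.8 for Dsc3 and 67.7 for Jup to 99.3 for Pkp1. Per 10 kb of gene, the compact genes Perp and Pkp3 had the most, at 1.67 and 1.63, followed by Pkp1 at 1.05, Dsc2 at 1.04 and Dsg3 at 0.967. The remaining members lay between 0 for Dsg2 and 0.423 for Dsp. The 59 regions had a median fold of 6.27, beside 7.11 for the whole list, and 29 of them (49.2%) had an IDR score of 1000, beside 45.1%. The median fold was thus below that of the list, while the counts within 50 kb were above the median gene.

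**Figure D4:**
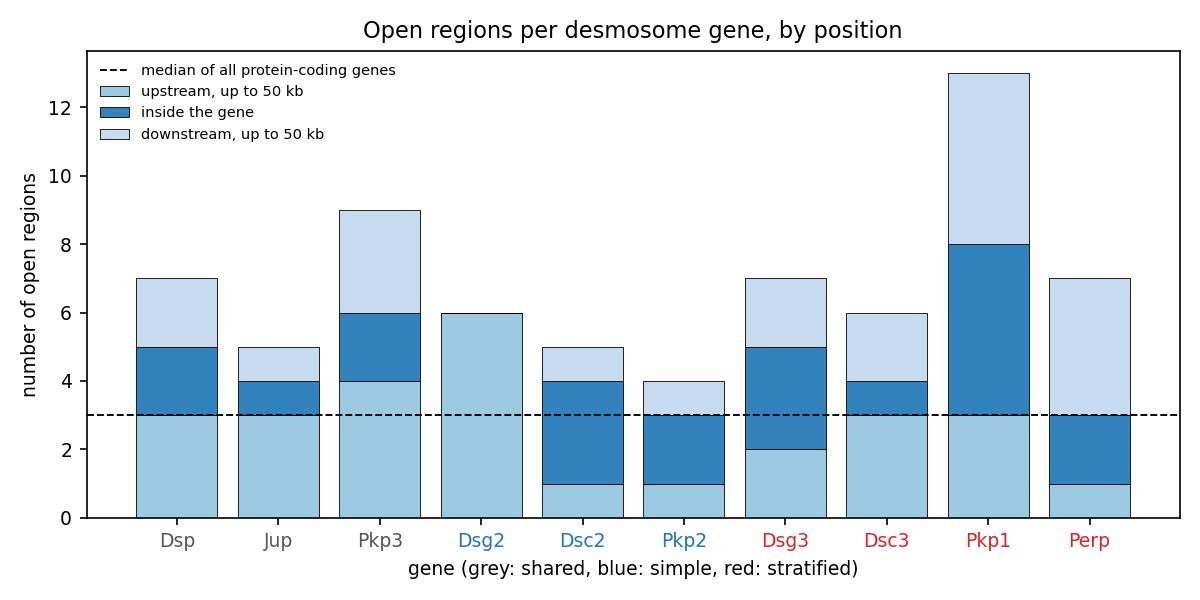
Number of open regions upstream, inside and downstream of each desmosome gene, out to 50 kb. The dashed line is the median of 3 over all protein-coding genes; every member stands above it, with Pkp1 highest at 13 and Pkp2 lowest at 4.

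Set pair by pair, the simple isoform had fewer regions than its stratified relative in each family. Within 50 kb, Dsg2 had 6 and Dsg3 had 7, Dsc2 had 5 and Dsc3 had 6, and Pkp2 had 4 and Pkp1 had 13. Neighbouring cadherins share regions, however, and 10 were within reach of 2 members. When each region was given only to the nearest protein-coding start, the counts were 2 and 5, 3 and 4, and 2 and 8. Over all isoforms they were 7 for the 3 simple and 24 for the 4 stratified. Perp, which has no simple partner here, held 7 of those 24. Inside the genes the order was not uniform, with 0 in Dsg2 and 3 in Dsg3, 3 in Dsc2 and 1 in Dsc3, and 2 in Pkp2 and 5 in Pkp1. The median over isoforms within 50 kb was 5 for simple and 7 for stratified, a difference of 2. It was 3.5 within 20 kb, 0.5 within 100 kb and 4 when each region went to its nearest start. The fold of regions was not compared between the groups, since 10 of the 15 regions within reach of simple isoforms were also within reach of stratified ones.

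Other junction genes were counted in the same way. Within 50 kb, the adherens junction, hemidesmosome and plaque partner genes each had a median of 7 regions, beside 6.5 for the members. Inside the genes their medians were 4, 3 and 1, beside 2 for the members. Of 9 adherens junction genes, 7 had a region at the start, among them Cdh1, the E-cadherin of all epithelia (fold 7.77), and Cdh3, the P-cadherin of basal cells (fold 8.96). Of 9 hemidesmosome genes, which fix basal cells to the matrix, 3 had one, among them Itga6 (fold 6.77) and Itgb4 (fold 4.61). Of the 6 without one, Dst held 11 regions inside and Lama3 held 9, while Col17a1 and Cd151 held 0, and starts other than the outermost were not examined. Of the plaque partners, Evpl (envoplakin) had one with a fold of 5.65, and Ppl and Cdsn had none. Pkp4, a plakophilin relative found at many kinds of junction, had one with a fold of 8.85, which lay 164.5 bp from its start and 142.5 bp from that of Ccdc148.

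The epithelial label was checked against markers. Of 12 epithelial markers, 9 had a region at the start, including Epcam (fold 6.64), the basal keratins Krt5 (fold 2.95) and Krt14 (fold 5.43) and the luminal keratin Krt8 (fold 5.96), while Krt18, Krt7 and Trp63 had none at the outermost start. For the stratified transcription factor gene Trp63, 7 regions lay inside. Of 6 immune markers 1 had a region at the start, Cd68, and of 6 endothelial, 6 fibroblast and 6 muscle markers 0 did. Ptprc, Cdh5 and Col1a1 were among those with none at the start, but regions near the genes were not rare. Within 50 kb, the immune, endothelial, fibroblast and muscle markers had medians of 2, 2, 0.5 and 3.5 regions, beside 5.5 for the epithelial markers and 3 over all protein-coding genes. They ranged from 0 for Ptprc, Col1a2, Col3a1, Lum, Ryr2 and Myod1 to 9 for Tnnt2 and Ckm, and Pecam1 had 6, of which 3 lay inside. Pkp2, Dsg2 and Dsc2 are also used by heart muscle, whose markers Myh6, Tnnt2, Actn2 and Ryr2 had 0 regions at their starts.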

How the data were processed

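ATAC-seq libraries of 4 organoid samples were sequenced as 75 bp paired-end reads. Alignment and peaks were the work of the authors, by the ENCODE pipeline for ATAC-seq, with 1 consensus list over all organoid samples; the version and filters are not given in the sources used here. The deposited list holds a fold (ratio) of summit signal over the local background, an IDR score, and a −log10 q-value for each line, all written by the authors' peak caller. No column belongs to a sample.

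The 69545 lines were reduced to 32011 distinct regions, each with the values of its summit of highest fold, and positions were counted from 1. Genes came from RefSeq (GRCm38.p6), without exons, so that regions inside genes were not assigned to exons or introns. Strand came from RefSeq promoters for 17491 protein-coding genes and, by symbol, from GENCODE mouse release 39 for 3945; 21436 of 21883 were placed. The sources gave different strands for 125 of 22109 genes of any type, where RefSeq was used. A region was placed by its midpoint. The share of genes with a region at the 5′ end, 38.3%, has a 95% Wilson interval of 37.6 to 38.9, for counting error only.

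Named genes were all members, other family genes, lists of junction genes and cell type markers, and neighbours whose 5′ end was nearer to a region. Members and lists were chosen with earlier results of these data known. One listed junction gene is not reported here by name. Functions were tested on made regions with known positions. Software was matplotlib 3.10.9, scipy 1.17.1, pandas 2.3.3 and numpy 2.4.6 under Python 3.11.15.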

Additional observations from a re-analysis of the deposited data

How the results depend on the processing

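No sample could be left out and no replicate spread could be given. No paired analysis was possible because the list is not split by sample. The 0 of 3 simple isoforms with a region at the 5′ end stayed 0 under 7 alternatives. It could not rise within 500 bp, in the 2 stricter sets or at a q-value of 0.05, which add no region. Within 2 kb it stayed 0 because the closest region lay 3.60 kb from an outermost start. With any overlap or either end of the gene it was also 0. The 4 stratified isoforms stayed 4 except in the 16006 regions with the lowest q-values and in the 14422 regions with an IDR score of 1000, where 2 kept one; over all members the 6 became 3 in both, Dsg3, Jup and Perp, and within 2 kb 7, with Pkp3 added. In these stricter sets, regions inside members numbered 5 and 6 in place of 21, regions within 50 kb 29 and 29 in place of 59, and regions of the cadherin cluster 11 and 10 in place of 22, fewer by construction. Counting every summit gave 49 inside. For all protein-coding genes the share was 35.3% within 500 bp, 41.4% within 2 kb, 25.9% in the 16006 regions with the lowest q-values and 24.0% at an IDR score of 1000. The difference in median between stratified and simple isoforms, 2, was 3.5 within 20 kb, 0.5 within 100 kb and 4 by nearest 5′ end; the cause was not tested. It stayed above 0 in all 8 alternatives, among them the q-value of 0.05, which removed no region near a member. Alternatives chosen after seeing the data were the q-value of 0.05, the nearest 5′ end for this median, the stricter sets for all genes, and the separate counts for simple and stratified isoforms. The other 31 of 49 alternatives left a count, difference or fold within 1.5 times the reported value, or the share of all genes within its 95% interval, by which that share was judged. Those at a q-value of 0.05 only repeated the reported values, and an unchanged 0 was counted among the 31.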
